A study of Mus musculus with 4 samples.

Results

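The interferon-stimulated genes described here are 39 genes chosen by name from the standard response to type I and type II interferon, with no threshold on measured values. Of these, 38 were counted in all 4 single-cell libraries, among 23635 genes counted in all, and Mx2 was not among the genes the files list. The libraries came from transplanted tumours of Py8119, a mouse line derived from a mammary tumour of the MMTV-PyMT transgenic model and used as a model of triple-negative breast cancer. The control group was 2 tumours of Py8119 cells labelled NC, and the second group was 2 tumours of Py8119 cells carrying an shRNA against Sema4d, which encodes the membrane semaphorin Sema4D. The series title places the question in Sema4D made by the tumour cells themselves. The host strain, age and sex, the time after transplantation, and whether the shRNA line was a clone or a pool are not stated in the sources used here. Nothing in the labels says that the 2 tumours of a group came from separate mice, so p-values measure the spread between these libraries. The labels name the cell type as tumour cells, yet the dissociated tumours also held cells with markers of macrophages, lymphocytes and stroma.

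Interferons are cytokines released when a cell senses foreign or misplaced nucleic acid (type I, such as interferon beta) or by activated T and NK cells (interferon gamma). Type I interferon signals through Ifnar1 and Ifnar2 to a complex that holds Stat2 and Irf9 and binds interferon-stimulated response elements, and interferon gamma signals through Ifngr1 and Ifngr2 to gamma-activated sites. In tumours the genes downstream serve antiviral defence, antigen presentation and the recruitment of T cells, and they are induced in tumour and host cells alike.

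The 39 genes lie on 14 chromosomes, with 8 on chromosome 11, 5 on chromosome 5, and 4, the IFIT family, close together on chromosome 19. Promoter windows of 250 bases before the start were taken from RefSeq (GRCm38.p6) and were found for 30 of the 39 genes, but not for Usp18, Mx1, Mx2, Oas2, Rtp4, Ifi27l2a, Dhx58, Zbp1 or Parp14. The core of the interferon-stimulated response element, searched as GAAA, any 2 bases and a second GAAA on both strands with overlapping matches allowed, was present for 14 of the 30 genes (46.7%), against 3.46% of 27025 genes in the table. The gamma-activated site, searched as the palindrome TTCNNNGAA, was present for 6 of 30, against 8.13% of all genes. A match is a description of letters and not a binding site. Irf1 and Ifit2 had 2 windows each, of which only the first held a match. The stretches below were chosen because the results turn on Isg15, the IFIT genes and Rsad2. Those of Irf1 and Ifit2 were chosen because only the gamma-activated motif was found in the windows searched. Each runs 5′ to 3′ on the strand of the gene, and capitals mark the motif on either strand. The matches start 78, 72 and 66 bases before the start of Isg15 (chr4:156200835-156200936, minus strand), 104 and 85 before that of Ifit1 (chr19:34640745-34640853, plus), 156 and 122 before that of Ifit3 (chr19:34583333-34583456, plus) and 120 before that of Rsad2 (chr12:26456523-26456612, minus). The gamma-activated motif starts 90 bases before Irf1 (chr11:53769884-53769972, plus) and 241 before Ifit2 (chr19:34550444-34550501, plus).
Isg15: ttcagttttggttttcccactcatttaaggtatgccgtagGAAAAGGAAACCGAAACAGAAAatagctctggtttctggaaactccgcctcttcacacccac
Ifit1: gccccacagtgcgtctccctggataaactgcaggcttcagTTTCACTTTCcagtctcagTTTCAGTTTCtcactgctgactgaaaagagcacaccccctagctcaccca
Ifit3: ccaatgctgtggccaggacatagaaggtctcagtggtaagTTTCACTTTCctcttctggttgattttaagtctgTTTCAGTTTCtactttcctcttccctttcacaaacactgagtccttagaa
Rsad2: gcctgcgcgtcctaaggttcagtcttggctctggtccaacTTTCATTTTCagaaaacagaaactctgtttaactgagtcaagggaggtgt
Irf1: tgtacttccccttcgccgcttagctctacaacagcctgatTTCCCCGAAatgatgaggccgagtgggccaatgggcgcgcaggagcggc
Ifit2: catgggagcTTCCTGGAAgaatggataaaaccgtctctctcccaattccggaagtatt

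After filtering, 42359 cells were compared. Each library held 83513906 to 119758159 unique molecular identifiers (UMIs, each standing for a tagged RNA molecule) and a median of 5690 to 8180 UMIs per cell. Cells were grouped into 22 clusters, computed without the interferon genes and named from fixed markers. Tumour-like cells numbered 5354 and 5224 in control 1 and control 2 and 7311 and 8491 in shRNA 1 and shRNA 2. Macrophage or monocyte-like cells, called macrophages below, numbered 3149, 3852, 1771 and 2270 in that order, which was 30.9% and 38.8% of the compared cells in the controls and 17.9% and 18.4% in the shRNA libraries. T/NK-like cells numbered 392, 260, 485 and 941. Values of 4 libraries are given below in the order control 1, control 2, shRNA 1, shRNA 2, and levels of a class are UMIs per 1000000 UMIs summed over its cells (CPM). RNA of other classes reached every class. Summed macrophage markers in tumour-like cells were at 0.616% to 1.498% of their level in macrophages, and 13 tumour markers summed in T/NK-like cells were at 301, 85.5, 166 and 268 CPM, or 6.35% to 23.4% of their level in tumour-like cells. Sema4d itself was at 6.55, 7.34, 3.86 and 5.49 CPM in tumour-like cells, lower in both shRNA libraries. The change was not past the threshold (log2 change -0.52, SE 0.18, adjusted p = 0.291 by edgeR's quasi-likelihood test). With each library left out in turn the log2 change ran from -0.81 to -0.27. The lower level was not confined to tumour-like cells. In T/NK-like cells Sema4d was at 204, 234, 157 and 166 CPM (-0.40, SE 0.15, adjusted p = 0.886 by edgeR). In macrophages it was at 69.7, 64.7, 63.4 and 76.5 CPM (0.13, SE 0.11, adjusted p = 0.747 by edgeR), with overlap of the groups. The median share of mitochondrial UMIs was 0.981% and 0.883% in the controls and 0.275% and 0.369% in the shRNA libraries, and its part in the comparisons below was not tested.

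All 38 genes had UMIs in tumour-like cells, macrophages and T/NK-like cells, in the last not in every library, and few were restricted to a class. With shared meaning that the highest and lowest of these 3 classes lay within 2-fold in every library, 9 genes were shared: Ifit1, Usp18, Herc6, Irf1, Irf9, Ddx58, Zbp1, Irgm1 and Ifi35. Only Oas2 was at least 4-fold above both other classes by the values of every library, and it was highest in macrophages. Its T/NK-like values rest on 3, 1, 0 and 2 UMIs, and with the level that 3 UMIs would give in their place where higher, the macrophage level in control 2 was only 1.66 times that of T/NK-like cells. The other 28 genes lay between. Macrophages were the highest class in all 4 libraries for 18 genes, tumour-like cells for 5 (Ifit3b, Ifi44, Xaf1, Bst2 and Gbp2) and T/NK-like cells for 1 (Ifi47, an interferon-gamma inducible GTPase). For 37 of the 38 genes the tumour-like level, as a share of the macrophage level, exceeded the share seen for macrophage markers in all libraries. The exception was Slfn5. In T/NK-like cells 35 genes exceeded the share seen for tumour markers in all libraries, and Ifi44, Phf11d and Oas2 did not. No test between classes was made, since classes came from clustering of the same cells.

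**Figure D1:**
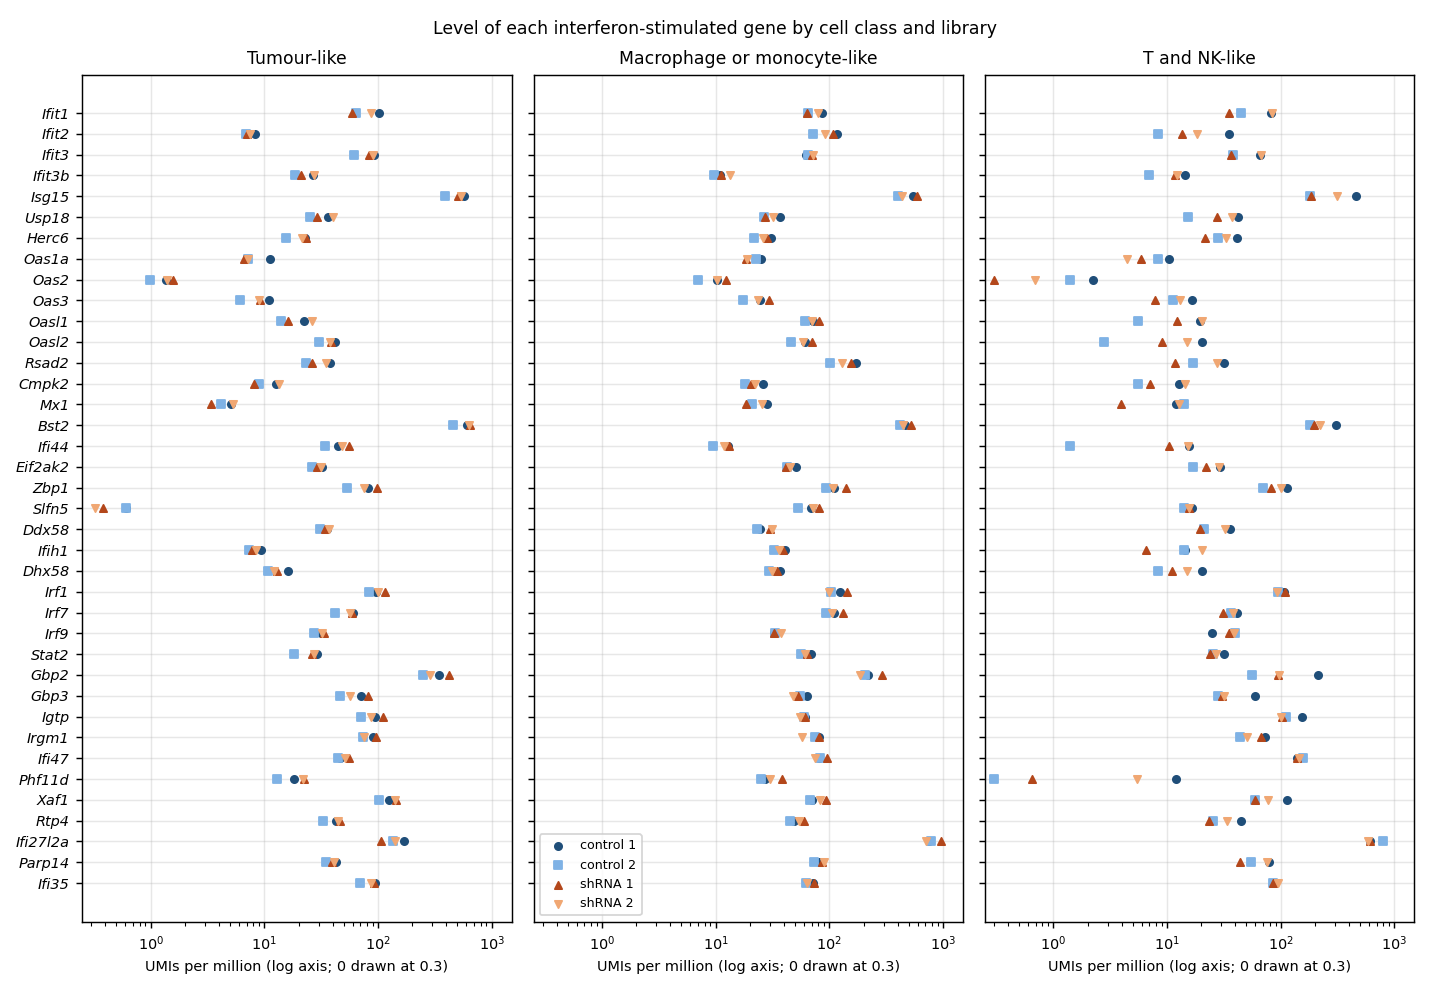
Level of each of the 38 interferon-stimulated genes in tumour-like cells, macrophages and T/NK-like cells (CPM on a log10 axis), with 1 point per library (blue for control, orange for shRNA) and a level of 0 drawn at the left edge. The points of the 3 classes lie close together for genes such as Ifit1, Irf1 and Ddx58 and far apart for Slfn5, Ifit2 and Oas2.

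Within the IFIT family, whose products bind viral RNA ends and block its translation, neighbours on chromosome 19 differed in where they were expressed. Ifit1 was at 103, 64.3, 59.5 and 87.1 CPM in tumour-like cells, with 85.7, 65.0, 64.2 and 79.0 CPM in macrophages and 82.5, 44.8, 35.1 and 83.9 CPM in T/NK-like cells. The ranges of the 3 classes overlapped. Ifit2 was at 8.36, 6.92, 7.11 and 7.42 CPM in tumour-like cells, against 116, 72.4, 108 and 92.5 CPM in macrophages. The macrophage level was thus 13.05 times the tumour level on average, from 10.5 to 15.2 times over libraries, with no overlap. Ifit3 was at 92.2, 61.4, 84.0 and 89.98 CPM in tumour-like cells, against 62.9, 64.8, 70.5 and 72.1 CPM in macrophages, and Ifit3b was at 0.480 times its tumour level in macrophages (0.404 to 0.530). Ifit3 and Ifit3b are near-identical copies, and how reads matching both were counted is not given in the sources at hand, so their split is uncertain. Ifit2 had the largest macrophage-to-tumour ratio of the 4.

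Genes of the ISG15 pathway had close levels in tumour-like cells and macrophages. Isg15, a ubiquitin-like modifier that is attached to other proteins and also secreted, was at 576, 388, 505 and 541 CPM in tumour-like cells, with 543, 402, 586 and 434 CPM in macrophages and 461, 182, 185 and 311 CPM in T/NK-like cells. Macrophages held on average 0.977 times the tumour level. Usp18, the protease that removes Isg15 and damps the type I receptor, was at 36.7, 24.99, 29.1 and 40.1 CPM in tumour-like cells, against 36.6, 26.4, 27.2 and 31.9 CPM in macrophages. Herc6, the ligase for Isg15 in mice, was at 22.6, 15.4, 23.2 and 21.5 CPM in tumour-like cells, against 31.0, 21.7, 28.5 and 25.95 CPM in macrophages.

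The OAS and OASL group, in which the OAS enzymes answer double-stranded RNA by activating RNase L, leaned to macrophages. Oas2 was at 1.37, 0.986, 1.57 and 1.40 CPM in tumour-like cells, against 10.3, 6.98, 12.3 and 10.3 CPM in macrophages. In T/NK-like cells it was at 2.25, 1.40, 0 and 0.685 CPM, and the count of 0 in shRNA 1 allows up to 1.95 CPM (3 UMIs). Its macrophage level was 7.08 to 7.86 times the tumour level. The ratio was 3.61 for Oasl1, 2.70 for Oas3 and 2.64 for Oas1a, the last of which has close copies that share reads. The other antiviral effectors were mixed. Rsad2, which encodes viperin, was 4.54 times higher in macrophages than in tumour-like cells (3.69 to 5.93), and Mx1, a dynamin-like antiviral GTPase, was 5.19 times higher (4.83 to 5.52). Ifi44 ran the other way, at 44.8, 34.2, 55.2 and 48.0 CPM in tumour-like cells, against 12.8, 9.47, 13.2 and 11.8 CPM in macrophages. Bst2, or tetherin, which holds budding virions at the cell surface, was also higher in tumour-like cells in every library, with 605, 460, 641 and 635 CPM against 461, 422, 523 and 444 CPM.

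Slfn5, a Schlafen family member, showed the widest gap between the classes. It was at 68.3, 53.0, 81.6 and 71.1 CPM in macrophages and at 0.607, 0.602, 0.384 and 0.325 CPM in tumour-like cells, a ratio of 88.0 to 219. The tumour values rest on 42, 33, 35 and 30 UMIs. They were at 0.889%, 1.14%, 0.470% and 0.457% of the macrophage level, below the share of macrophage markers found in tumour-like cells in each library, so no Slfn5 expression by tumour-like cells was detectable above that background. In T/NK-like cells Slfn5 was at 14.0 to 16.5 CPM.

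Of the cytoplasmic RNA sensors, Ddx58, which encodes RIG-I, was shared, whereas Ifih1 was at 9.43, 7.39, 7.83 and 8.44 CPM in tumour-like cells, against 40.8, 32.8, 39.5 and 36.4 CPM in macrophages, 4.52 times higher. Dhx58, which encodes their regulator, was 2.55 times higher in macrophages. Among the transcription factors, Irf1 and Irf9 were shared, while Stat2 and Irf7, the amplifier of interferon alpha transcription, were 2.47 and 2.03 times higher in macrophages than in tumour-like cells. The interferon-gamma inducible GTPases, which attack the vacuoles of intracellular pathogens, differed in their highest class. Gbp2 was at 344, 250, 420 and 285 CPM in tumour-like cells, against 219, 205, 289 and 185 CPM in macrophages, and Gbp2, Gbp3 and Irgm1 were lowest in T/NK-like cells in every library. Ifi47 was at 139, 158, 140 and 145 CPM in T/NK-like cells and at 45.9, 44.1, 55.3 and 51.0 CPM in tumour-like cells, 2.54 to 3.59 times lower, with macrophages between (1.48 to 1.88 times the tumour level). Igtp was lower in macrophages than in both other classes in every library. Genes of this family resemble each other, and reads shared between copies may be split. Of the remaining genes, Ifi27l2a, a small mitochondrial membrane protein, was 5.76 times higher in macrophages than in tumour-like cells (4.41 to 9.05), and Xaf1, a pro-apoptotic protein, was at 0.615 times the tumour level there.

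Summed over the 38 genes, interferon-stimulated RNA made up more of a macrophage than of a tumour-like cell in every library. The mean sum per 10000 UMIs of a cell was 47.5, 38.8, 53.8 and 43.0 in macrophages and 34.7, 25.4, 34.5 and 31.9 in tumour-like cells. In T/NK-like cells it was 29.1, 29.2, 28.3 and 25.8, inside the range of tumour-like cells. Bst2 (20.03%), Isg15 (17.1%) and Gbp2 (11.1%) held the largest parts of the sum in tumour-like cells, and Ifi27l2a held 20.5% in macrophages and 23.8% in T/NK-like cells. The medians were lower than the means, at 22.7, 14.6, 25.2 and 21.8 in tumour-like cells and 27.9, 24.5, 34.5 and 24.8 in macrophages.

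Cells with at least 50 such UMIs per 10000 were called interferon-high, which is a range of a continuous measure and not a cell type, with 2.69% to 7.34% of cells within 10% of the limit. In tumour-like cells the interferon-high share was 21.7% (exact 95% interval 20.6 to 22.9), 13.9% (12.9 to 14.8), 22.4% (21.4 to 23.3) and 19.4% (18.6 to 20.3). In macrophages it was 27.9% (26.4 to 29.5), 21.1% (19.8 to 22.4), 34.9% (32.7 to 37.2) and 25.5% (23.7 to 27.4). T/NK-like cells had 17.1% (13.5 to 21.2), 13.8% (9.89 to 18.7), 16.7% (13.5 to 20.3) and 12.01% (10.0 to 14.3). The intervals cover counting error only. Macrophages had the highest share in each library, and control 2 had the lowest share of the 4 libraries in tumour-like cells and macrophages. Depth differed between the classes, with medians of 8467.5 to 10510 UMIs per tumour-like cell, 3674.5 to 4173 per macrophage and 2015 to 2140 per T or NK-like cell. With every cell thinned to 1000 UMIs the shares were 18.0% to 28.0% in tumour-like cells, 26.8% to 39.5% in macrophages and 15.1% to 19.9% in T/NK-like cells, and the order of the classes within each library was kept.

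**Figure D2:**
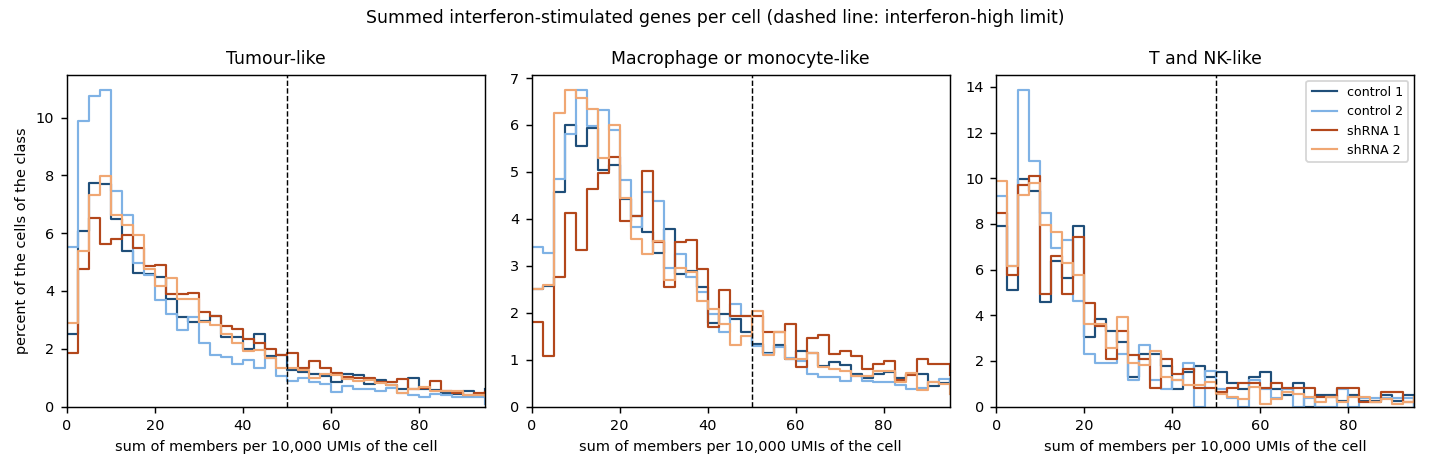
Distribution of the summed UMIs of the 38 interferon-stimulated genes per 10000 UMIs of a cell, as the percent of cells in each bin, for the 3 classes and with 1 line per library; the dashed line marks the interferon-high limit of 50, and cells above the last bin are not drawn. Each class has a long tail to the right, and control 2 lies furthest to the left in tumour-like cells. In macrophages control 2 and shRNA 2 lie close together on the left. Their upper quartiles there are 45.3 and 50.6 per 10000 UMIs.

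Within a class the sum differed widely between clusters. Among tumour-like cells, cluster 3, led by Cxcl1, Ccl2, Lcn2 and Nos2, stood highest with a mean of 87.1, 69.6, 65.8 and 77.6 per 10000, and 72.8%, 58.3%, 57.1% and 64.9% of its cells were interferon-high. Ifit3 and Cxcl10 were also among its leading genes. It was a small cluster, at 5.08%, 3.45%, 10.4% and 2.28% of tumour-like cells, and it held 17.0%, 14.5%, 26.5% and 7.63% of the interferon-high ones. Most interferon-high tumour cells therefore lay outside it. Cluster 5, led by Slurp1 and Ly6c1, had means of 42.4, 20.7, 40.6 and 46.2, and cluster 6, led by the cell cycle genes Ube2c and Cdk1, had means of 25.6, 19.1, 24.9 and 24.6. Among macrophages cluster 7, led by Plac8, Ly6c2 and Ccr2, stood highest with means of 110, 83.6, 98.0 and 100. This cluster made up 14.4%, 7.996%, 22.0% and 12.5% of the class and 36.4%, 20.1%, 44.5% and 31.8% of its interferon-high cells. Cluster 13, led by the complement genes and Apoe, was the largest, with means of 31.3, 31.6, 35.3 and 32.2. The library with the highest class mean, shRNA 1, thus also had the largest share of cluster 7, and control 2, with the lowest mean, had the smallest. With each cluster held at its mean share over the 4 libraries, the macrophage means came to 47.4, 43.0, 49.2 and 43.6. The tumour means came to 34.9, 26.1, 33.2 and 33.2. Genes used in clustering, but not the interferon-stimulated genes, defined these clusters, so the values are a description with no test.

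**Figure D3:**
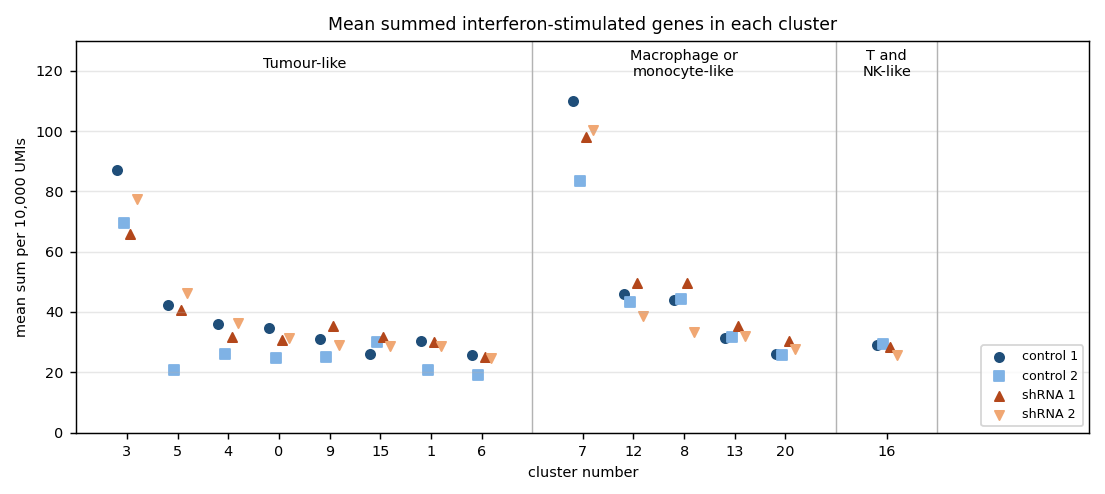
Mean summed UMIs of the interferon-stimulated genes per 10000 UMIs for each cluster of tumour-like cells, macrophages and T/NK-like cells, with 1 point per library. Cluster 3 (tumour-like) and cluster 7 (macrophages) stand above the other clusters of their class in every library.

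Cells rich in IFIT RNA were also rich in most of the other genes. Within each library and class, the tenth of cells with the highest summed IFIT RNA was set against the rest, and the other 34 genes were compared between them. In tumour-like cells 33 of the 34 were higher in the IFIT-rich cells in all 4 libraries, 29 of them by 2-fold or more in each, and the median fold was 3.29. The exception was Slfn5, at 0.56-fold in control 1. Rsad2 led with 19.3-fold to 33.6-fold, for example 313 against 13.4 CPM in control 1, followed by Cmpk2, the nucleotide kinase encoded beside it on chromosome 12, with 13.4-fold to 22.8-fold. Isg15 was 5.49 to 8.42 times higher. Bst2 and Irf1 were at median folds of 2.48 and 2.00. Irf9 had the lowest median fold, at 1.76. Summed macrophage markers were 0.96 to 1.11 times as high in the IFIT-rich tumour-like cells as in the rest, and their median depth was lower (7650.5 to 8804 against 8571 to 10718 UMIs).

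In macrophages all 34 genes were higher in the IFIT-rich cells in every library, 27 by 2-fold or more in each, with a median fold of 4.23. Rsad2 (32.5), Cmpk2 (30.3), Mx1 (17.2), Oasl1 (13.2), Usp18 (12.1) and Isg15 (11.7) had the largest median folds. Gbp2 (1.53), Irf1 (1.80) and Irf9 (1.34) had the smallest. Slfn5, at background in tumour-like cells, was 5.78 times higher in IFIT-rich macrophages. Cxcl10, an interferon-induced chemokine for T cells that is not among the 39 genes, was 9.15 times higher in IFIT-rich macrophages and 14.1 times higher in IFIT-rich tumour-like cells, while summed macrophage markers were 0.75 times as high in the IFIT-rich macrophages. The split was not used in T/NK-like cells, of which 84.4% to 90.4% had no IFIT UMI. The share was 53.4% to 67.9% in tumour-like cells and 69.0% to 77.9% in macrophages.

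**Figure D4:**
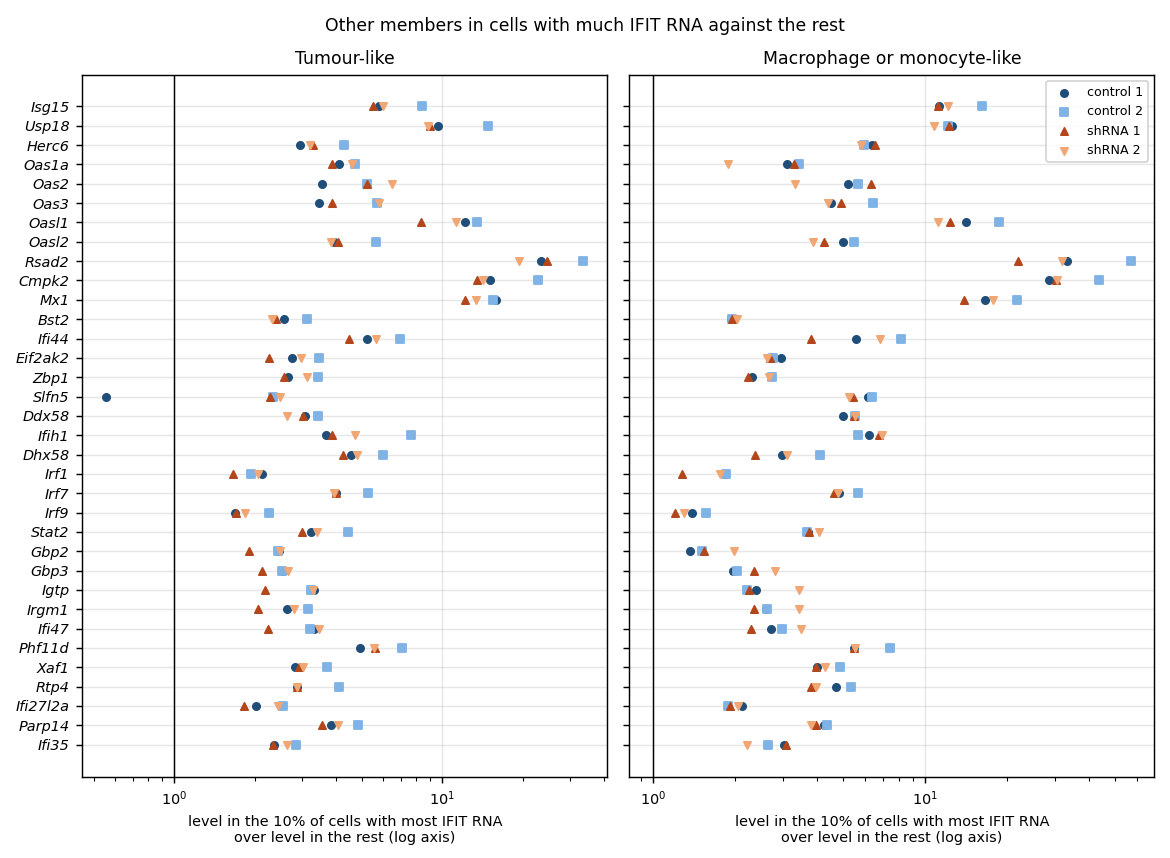
Fold difference (log axis) of each of the other 34 interferon-stimulated genes between the tenth of cells with the highest summed IFIT RNA and the remaining cells of the same library, for tumour-like cells and macrophages, with 1 point per library. Rsad2, Cmpk2 and Mx1 lie furthest to the right in both classes, and Irf9 has the lowest median fold in both.

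The comparison of shRNA with control tumours asks how the interferon response differs between tumours grown from shRNA and from control cells. The lower Sema4d level in tumour-like cells was itself not past the threshold, as given above. With genes of low counts filtered out, no interferon-stimulated gene passed edgeR's quasi-likelihood test at an adjusted p of 0.05 in any class. The count was 0 of 38 in tumour-like cells, where 0.545% of all genes tested passed, 0 of 38 in macrophages, where 0.256% passed, and 0 of 36 in T/NK-like cells, where 0.251% passed. Oas2 and Phf11d were too low to be tested in the last class. At an unadjusted p under 0.05 there were 8 in tumour-like cells (Ifi44, Phf11d, Irf1, Xaf1, Rtp4, Bst2, Slfn5 and Ifi47, against 12.9% of all genes), 8 in macrophages (Ifit3, Phf11d, Xaf1, Rtp4, Ddx58, Zbp1, Slfn5 and Parp14, against 10.6%) and 0 in T/NK-like cells (against 4.73%). The calls depended on the filter on low counts. Without it, 8 genes passed edgeR's test in tumour-like cells (Bst2, Ifi44, Ifi47, Igtp, Irf1, Phf11d, Rtp4 and Xaf1, against 3.98% of all genes) and 4 in macrophages (Ddx58, Phf11d, Slfn5 and Xaf1, against 2.14%), all higher in shRNA. Without control 1, Phf11d passed in tumour-like cells (0.3% of all genes). DESeq2 called Phf11d and Xaf1 in tumour-like cells (1.96% of all genes) and no gene of the group in macrophages (0.567%) or T/NK-like cells (0.319%). Simulated counts were drawn with the same fixed spread for every gene. On them the edgeR test recovered 84.7%, 85.6% and 62.9% of genes changed by a log2 of 1 in the 3 classes. Smaller changes were the ones most easily missed, and the rates do not carry over to genes that spread more between libraries.

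The direction was uneven between classes. In tumour-like cells 30 of 38 genes had a log2 change above 0 (51.1% of all genes did), with a median of 0.18 against 0.005 over all genes. In macrophages 32 of 38 were above 0 (51.1% of all genes) with a median of 0.18 against 0.006, and in T/NK-like cells 13 of 36 were above 0 (50.6% of all genes) with a median of -0.13 against 0.004. The medians were within the replicate SD of the gene group in tumour-like cells (0.230) and T/NK-like cells (0.419) and slightly past it in macrophages (0.154). Control 2 was the lowest library for 32 of 38 genes in tumour-like cells and 25 of 38 in macrophages, while control 1 was the highest for 17 and 14. Without control 2 the tumour median was -0.025, and without control 1 it was 0.44, so the direction in tumour-like cells rested on control 2. Both shRNA libraries lay above both controls for 9 genes in tumour-like cells (13.6% of all genes) and 8 in macrophages (12.5%), and 0 in T/NK-like cells (14.6%). Both lay below for Slfn5 in tumour-like cells (30.7% of all genes), Oas1a and Gbp3 in macrophages (31.6%), and Oas1a, Ifi27l2a and Igtp in T/NK-like cells (18.1%). Genes outside the naming rule in these counts were named after their values were seen.

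In tumour-like cells the transcription factors (4 of 4 above 0, median 0.23) and the interferon-gamma inducible GTPases (5 of 5, median 0.29) were above 0 throughout, and the IFIT family had 2 of 4 above 0 with a median of 0.05. Irf1, which drives antigen presentation genes, stood at 96.9, 83.0, 116 and 101 CPM (log2 change 0.32, SE 0.10, adjusted p = 0.232 by edgeR). Both shRNA libraries were above both controls. Xaf1 stood at 126, 102, 145 and 142 CPM (0.38, SE 0.11, adjusted p = 0.180 by edgeR), again without overlap. Ifi44 stood at 44.8, 34.2, 55.2 and 48.0 CPM (0.43, SE 0.14, adjusted p = 0.252), and Rtp4, a receptor chaperone, at 43.2, 33.1, 46.4 and 44.9 CPM (0.31, SE 0.12, adjusted p = 0.367), both without overlap. With no filter on low counts the adjusted p was 0.0093 for Irf1, 0.00083 for Xaf1, 0.00012 for Ifi44 and 0.015 for Rtp4 by edgeR. In that fit it was smallest for Phf11d, at 3.5e-06 (log2 change 0.57, SE 0.10). Both shRNA libraries were above both controls for Phf11d too. Bst2 and Ifi47 also passed in that fit, at 0.015 and 0.027. The spread within a group was wider for the following genes, and the groups overlapped for each. Gbp2 stood at 344, 250, 420 and 285 CPM (0.30, SE 0.25). Igtp stood at 93.8, 70.5, 110 and 87.2 CPM (0.31, SE 0.17; edgeR adjusted p = 0.013 with no filter), and Zbp1, a sensor of Z-form nucleic acid that can trigger necroptosis, at 81.9, 53.4, 98.1 and 75.7 CPM (0.41, SE 0.26). The Stat2 level was 29.0, 18.1, 26.4 and 27.6 CPM (0.24, SE 0.23). For Herc6 (0.28, SE 0.18), Usp18 (0.22, SE 0.27), Oasl2 (0.13, SE 0.15) and Ddx58 (0.15, SE 0.10) the log2 change was also above 0 with overlap of the groups. Ifit1 and Ifit3 differed in sign, at -0.14 (SE 0.36) and 0.23 (SE 0.20). Adjusted p-values of the 38 genes ran from 0.178 to 0.998.

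In macrophages the IFIT family (4 of 4 above 0, median 0.20), the OAS and OASL group (4 of 5, median 0.35) and the remaining genes (6 of 6, median 0.30) were mostly above 0, and the GTPases had a median of 0.01. Ddx58 stood at 24.3, 23.3, 30.1 and 31.4 CPM (log2 change 0.45, SE 0.11, adjusted p = 0.156 by edgeR), the smallest adjusted p of the group in this class. Both shRNA libraries were above both controls. Xaf1 stood at 71.1, 68.0, 93.9 and 83.4 CPM (0.43, SE 0.11, adjusted p = 0.167), and Phf11d at 27.4, 25.2, 38.3 and 30.2 CPM (0.46, SE 0.14, adjusted p = 0.244), also without overlap. With no filter on low counts the adjusted p was 0.043 for Ddx58, 0.026 for Xaf1, 0.024 for Phf11d and 0.040 for Slfn5 by edgeR. Slfn5 was at 0.41 (SE 0.14, adjusted p = 0.317), and Ifit3, with 62.9, 64.8, 70.5 and 72.1 CPM, at 0.24 (SE 0.10, adjusted p = 0.437). For both, the shRNA libraries were above the controls. Oas3 stood at 24.7, 17.3, 29.6 and 23.6 CPM (0.42, SE 0.20), Oasl2 at 61.4, 45.8, 71.0 and 58.3 CPM (0.35, SE 0.17), and Zbp1 at 109, 93.5, 141 and 107 CPM (0.37, SE 0.15). For these 3 genes shRNA 2 lay between the controls. Irf7 was at 110, 94.4, 131 and 106 CPM (0.29, SE 0.14) and Irf9 at 32.3, 33.3, 32.4 and 37.2 CPM (0.16, SE 0.11), with overlap. The log2 changes of Ifit2 (0.17, SE 0.26), Isg15 (0.19, SE 0.20), Herc6 (0.12, SE 0.17), Ifih1 (0.12, SE 0.13) and Gbp2 (0.24, SE 0.24) were each within about their standard error, and Gbp3 was at -0.17 (SE 0.12). Macrophages were a smaller share of the shRNA libraries, and cluster 7 was of unequal size in the libraries, as given above. The part of either in these values was not tested. Without shRNA 2, 9 genes of the group passed the test in macrophages, all higher in shRNA (Gbp2, Irf7, Oas3, Oasl2, Phf11d, Rtp4, Slfn5, Xaf1 and Zbp1), where 3.89% of all genes passed. With any other library left out none did.

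**Figure D5:**
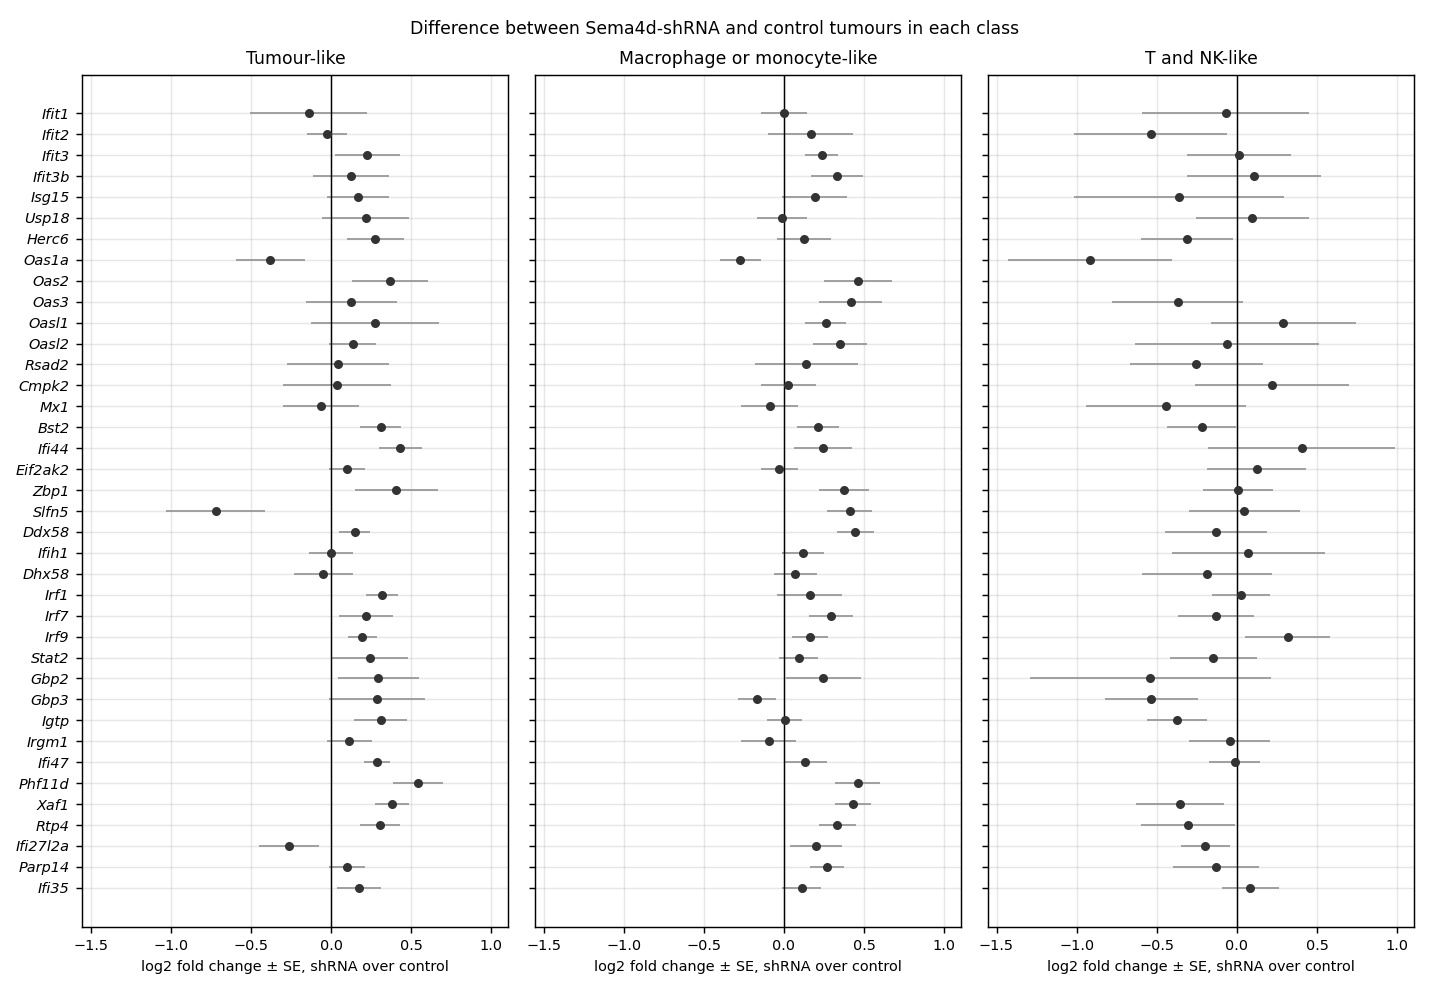
Log2 change of each interferon-stimulated gene between shRNA and control tumours (positive is higher in shRNA) with its standard error, in the 3 classes, from edgeR. Most points lie right of 0 in tumour-like cells and macrophages and left of 0 in T/NK-like cells, and no gene passed an adjusted p of 0.05 in these fits, which filter out low counts.

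T/NK-like cells gave the least precise values, since a class of 260 to 941 cells was summed. All 36 tested genes had an adjusted p of 0.998 by edgeR. Control 1 was the highest library for 25 of the 36 and control 2 the lowest for 17. Isg15 stood at 461, 182, 185 and 311 CPM (log2 change -0.36, SE 0.65), with control 1 far above control 2. Gbp2 had the same pattern, at 214, 56.0, 94.8 and 96.6 CPM (-0.54, SE 0.75), as did Bst2 at 308, 182, 197 and 220 CPM (-0.22, SE 0.21) and Xaf1 at 115, 58.8, 59.8 and 76.7 CPM (-0.36, SE 0.27). The summed tumour markers in this class followed that order too, with 301 CPM in control 1 and 85.5 CPM in control 2, and their part in these values was not tested. Ifit1 (-0.07, SE 0.52), Ifit3 (0.01, SE 0.32), Rsad2 (-0.25, SE 0.41), Herc6 (-0.31, SE 0.29), Ddx58 (-0.13, SE 0.32), Rtp4 (-0.31, SE 0.29) and Stat2 (-0.15, SE 0.27) had log2 changes near or within 1 standard error of 0. Gbp3 was at -0.53 (SE 0.29). Irf9, at 24.7, 39.2, 35.1 and 38.7 CPM (0.32, SE 0.27), was lowest in control 1. The 5 interferon-gamma inducible GTPases were all below 0, with a median of -0.37. Without control 2, 4 genes (Isg15, Gbp2, Gbp3 and Xaf1) of 37 passed the test as lower in shRNA, where 1.94% of all genes passed. The median over the group ranged from -0.42 (without shRNA 2) to 0.26 (without control 1), and it was 0.016 when the interferon genes took part in clustering.

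The summed RNA and the interferon-high share did not pass a test either. The mean sum differed by 3.09 per 10000 in tumour-like cells (controls 30.1 ± 6.59, shRNA 33.2 ± 1.80, SD, n = 2, two-sided exact permutation p = 1), by 5.23 in macrophages (43.2 ± 6.18 and 48.4 ± 7.59, exact permutation p = 0.667) and by -2.16 in T/NK-like cells (29.2 ± 0.076 and 27.0 ± 1.80, exact permutation p = 0.3333). In T/NK-like cells both shRNA libraries lay below both controls, and in the other classes the groups overlapped. With 2 libraries against 2 the smallest possible p is 0.3333. With 1 library left out the difference ran from -1.57 to 7.76 in tumour-like cells, where it was below 0 without control 2, and from -0.14 to 10.6 in macrophages, where it was below 0 without shRNA 1. With every cell thinned to 1000 UMIs the T/NK-like groups overlapped, at 28.0, 29.6, 28.8 and 25.4. The difference in T/NK-like cells was -0.456 without Ifi27l2a, the gene with the largest part of their sum, and the groups then overlapped. The interferon-high share differed by 3.10 percentage points in tumour-like cells, 5.69 in macrophages and -1.11 in T/NK-like cells, with overlapping groups and an exact permutation p of 0.667 for each. In tumour-like cells it was -0.837 without control 2 and -0.0787 with a limit of 100 in place of 50, and in T/NK-like cells it was 0.509 without control 1 and 1.23 without shRNA 2.

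A difference of the shRNA effect between classes was tested with the library as a block. Against tumour-like cells, 1 of the 38 genes passed in macrophages, where 3.37% of all genes passed, and 0 passed in T/NK-like cells, where 0.448% passed. At an unadjusted p under 0.05 there were 4 in macrophages (Ddx58, Slfn5, Gbp3 and Igtp, against 13.8% of all genes) and 6 in T/NK-like cells (Isg15, Phf11d, Xaf1, Bst2, Gbp3 and Igtp, against 4.75%). The gene that passed was Slfn5, with a log2 difference of 1.14 (SE 0.24, adjusted p = 0.0082 by edgeR). It was higher in both shRNA libraries in macrophages (0.41, SE 0.14) and lower in both in tumour-like cells (-0.72, SE 0.31, adjusted p = 0.375). Its tumour level lay below the macrophage-marker share in every library, and those markers in tumour-like cells were themselves lower in the shRNA libraries, at 287, 371, 134 and 139 CPM; their part in this result was not tested. The call did not hold without the library term (1.15, adjusted p = 0.119), without control 1 (1.30, adjusted p = 0.0562) or without control 2 (0.97, adjusted p = 0.241). In fits added after seeing the data that left out a library, the genes that passed in macrophages were Gbp3 without control 1 (1.92% of all genes passed), Oasl1 and Slfn5 without shRNA 1 (3.26%), and Gbp3, Ifi27l2a, Oasl1, Rsad2 and Slfn5 without shRNA 2 (5.86%). In T/NK-like cells Gbp2, Isg15 and Xaf1 passed without control 2 (0.529%).

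The interferons themselves were sparse. Of 21 listed ligand genes, 2 were high enough to be tested in tumour-like cells and 1 in each other class, and none passed the test. Ifnb1, interferon beta, was read mainly in macrophages, at 13.8, 8.73, 18.3 and 7.47 CPM (log2 change 0.26, SE 0.62, adjusted p = 0.930 by edgeR). The groups overlapped. In tumour-like cells it was at 0.097 to 0.24 CPM. Whether this exceeded the share of macrophage RNA that reached tumour-like cells was not tested. In T/NK-like cells Ifnb1 had 0 UMIs in each library, which allows up to 1.03 to 4.20 CPM (3 UMIs). Ifng, interferon gamma, was at 0.22 to 0.74 CPM in tumour-like cells. As a share of its T/NK-like level this lay, in every library, below the share of T/NK markers found in tumour-like cells (0.083% to 0.225%). In T/NK-like cells Ifng was read at 241, 332, 509 and 383 CPM (0.68, SE 0.19, adjusted p = 0.451 by edgeR). Both shRNA libraries were above both controls, and with each library left out in turn the log2 change ran from 0.45 to 0.92. None of the receptors (5, 5 and 4 of 6 tested in the 3 classes) passed. Ifnar1 was at 22.7 to 28.0 CPM in tumour-like cells, 58.7 to 73.3 CPM in macrophages and 33.8 to 47.6 CPM in T/NK-like cells. Ifnar2 was likewise highest in macrophages, at 204 to 218 CPM. Ifngr1 was highest in T/NK-like cells, at 212 to 269 CPM, whereas Ifngr2, its partner chain, was lowest there, at 2.60 to 12.7 CPM, against 104 to 117 CPM in macrophages.

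None of the 10 Jak and Stat signalling genes and none of the nucleic acid sensing genes (15, 16 and 13 of 16 tested) passed in any class. Of 73 other interferon-induced genes listed, 46 of 66 tested were above 0 in tumour-like cells, 45 of 66 in macrophages and 23 of 60 in T/NK-like cells, against 51.1%, 51.1% and 50.6% of all genes. The single gene of these that passed was Ifitm1, an antiviral membrane protein named here after its value was seen, in T/NK-like cells, where 0.251% of all genes passed. It was at 220, 214, 629 and 399 CPM, with both shRNA libraries above both controls (log2 change 1.27, SE 0.21, adjusted p = 0.0371 by edgeR), and it passed with each library left out in turn.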

How the data were processed

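The deposited files hold raw UMI counts per gene and cell for 2 control and 2 shRNA libraries, written by PISA 1.0 per the file headers. The submitters' processing notes name STAR 2.5.1b and the builds GRCh38 and mm10. Annotation, strand, treatment of shared reads and cell calling are nowhere given in the sources used here, and the lowest cell had 1000 UMIs. Filters kept cells of 300 or more genes with mitochondrial UMIs of 20% or less (45062 of 45220), and the 6% with the highest scrublet score per library were left out as doublets, since the automatic threshold marked 0% to 1.51%. Clustering (scanpy 1.11.5, 2000 variable genes, 30 components, 15 neighbours, Leiden resolution 1) left out 142 interferon genes. Clusters took names from marker lists, with limits set after the clusters had been seen, and 3 stayed unnamed. Libraries shared no identical cell.

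Counts were summed per class and library and tested with edgeR 4.0.16 (filterByExpr, TMM, quasi-likelihood, group as the only term), with Benjamini-Hochberg adjustment over all genes tested. Log2 changes are shRNA over control. Library values of the summed RNA were compared by exact permutation tests. Alternatives were DESeq2 1.42.0, its size factors, no filter on low counts, a replicate block, leaving out each library, keeping doublets, clustering with the interferon genes, Leiden resolution 2, other limits and thinning. The test was checked on simulated counts. Per role group and class, the 2 genes with the largest change among those of at least 20 CPM were named, plus genes called or highest in 1 class and the main ligands and receptors; a further gene named by the rule is not reported here. The genes, lists and tests were chosen with earlier results of these data known.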

Additional observations from a re-analysis of the deposited data

Results flagged for a closer look

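Slfn5 was marked because its shRNA effect in macrophages differed from that in tumour-like cells by a direct test of the difference (log2 difference 1.14, adjusted p = 0.0082 by edgeR with the library as a block). The tumour-like side of that difference rests on 42, 33, 35 and 30 UMIs in the 4 libraries. As a share of the macrophage level it lay below that of macrophage markers in each library. No Slfn5 expression by tumour-like cells was thus detectable above that background. The markers themselves were lower in tumour-like cells of the shRNA libraries, at 287, 371, 134 and 139 CPM, and their part in this result was not tested. The call did not hold without the library term or without either control library.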

How the results depend on the processing

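Counts of interferon-stimulated genes past the test were 0 in each class, and they were 8 in tumour-like cells (3.98% of all genes) and 4 in macrophages (2.14%) with no filter on low counts, 2 in tumour-like cells with DESeq2, and, with each library left out in turn, 0 to 1 in tumour-like cells (1 without control 1, with 0.3% of all genes), 0 to 9 in macrophages (9 without shRNA 2) and 0 to 4 in T/NK-like cells (4 without control 2). Over the same fits the median log2 change ranged from -0.025 to 0.44, 0.06 to 0.31 and -0.42 to 0.26, the summed RNA per 10000 UMIs differed by -1.57 to 7.76, -0.14 to 10.6 and -3.43 to -0.888, and the interferon-high share by -0.837 to 7.04, 0.994 to 10.4 and -3.46 to 1.23 percentage points. With an interferon-high limit of 100 the tumour difference was -0.0787 points. With class limits of 3 and 8 in place of 2 and 4, 17 genes were shared and 0 highest in macrophages. The difference between classes was past the test for 0 genes in macrophages without the library term and, in fits added after seeing the data, for 0 to 5 in macrophages (5 without shRNA 2, with 5.86% of all genes) and 0 to 3 in T/NK-like cells (3 without control 2, with 0.529%) with a library left out. Nothing in the labels says what libraries of the same replicate number share, and 2 pairs cannot settle whether the numbers pair them (correlations of deviations 0.069, 0.273 and -0.035 in the 3 classes). With the replicate block 0 genes of the group were called in each class. Of all genes, 79, 32 and 22 were called in the 3 classes, against 159, 102 and 76 with the replicate block, 869, 450 and 77 with no filter, and 284 and 71 in the first and second with DESeq2. Leaving out a library gave 19 to 523, 1 to 520 and 38 to 185, and clustering with the interferon genes gave 51 in tumour-like cells. The cause of these shifts was not tested. Fits that left a group with 1 library assume that it varied like the other group.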

Other observations

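Classes with fewer cells are given as values. Neutrophil-like cells had the highest mean summed interferon-stimulated RNA of all named classes in every library, with means of 152, 130, 187 and 237 per 10000 UMIs over 60, 28, 27 and 15 cells of 1234 to 1964 UMIs at the median. Their medians were 96.7, 51.9, 76.4 and 44.5, in another order of libraries, and the upper quartile in shRNA 2 was 460. Dendritic-like cells had means of 62.6, 34.6, 64.7 and 36.8, so control 1 and shRNA 1 stood well above the other 2 libraries whatever their group. Endothelial-like cells had 28.1, 26.1, 55.7 and 27.5, fibroblast-like cells 25.9, 28.1, 42.7 and 24.8, and mammary epithelial-like cells 16.1, 13.5, 25.3 and 14.3, with shRNA 1 the highest library in these 3 classes as in macrophages and dendritic-like cells.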
